A study of Mus musculus with 4 samples.

Results

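Hox genes encode homeodomain transcription factors and lie in 4 clusters, Hoxa on mouse chromosome 6, Hoxb on 11, Hoxc on 15 and Hoxd on 2. They were taken here as every probe set whose gene symbol is Hoxa, Hoxb, Hoxc or Hoxd followed by a number and nothing else. That rule uses no measured value, although it was chosen with earlier results of these data known. That gave 38 probe sets, 1 for each gene, of 25206 on the array, of which 23185 carry 1 gene symbol. Hoxa has 10 of them, Hoxb 10, Hoxc 9 and Hoxd 9.

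The RNA came from lungs of adult Acta2-hrGFP;Cspg4-DsRED mice. In these animals hrGFP marks cells that express Acta2, the smooth muscle actin gene, and DsRED marks cells that express Cspg4, a gene of pericytes and vascular muscle. Every sample is the hrGFP+ DsRED- fraction from flow cytometry, labelled airway smooth muscle, with RNA of 3 mice pooled on 1 Affymetrix array. VAD mice ate a diet with less than 0.1 IU of vitamin A per gram, for 3 days by one statement of the protocol and 5 by another. VAS mice ate the normal sufficient diet of 15 IU per gram. BMS mice received an antagonist of all retinoic acid receptors, 5 mcg per gram, mixed for 3 days into a powdered sufficient diet, and CTR mice the same powder with corn oil. A green, non-red sort can hold any Acta2-expressing lung cell that lacks the red reporter.

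Vertebrate Hox genes carry numbers, the paralog groups, that follow their order along each cluster. Low-numbered genes are switched on first and farthest forward in the embryo, high-numbered ones later and nearer the tail, and organs keep part of this positional pattern in their adult connective tissue and muscle. Retinoic acid, made in cells from vitamin A, switches on low-numbered Hox genes in the embryo through response elements beside them, and its receptors are what the antagonist blocks. In the mouse lung, Hoxa5 and Hoxb5 are known from airway and branching development.

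All 38 values are the authors' RMA values on a log2 scale, so a difference of 1 is 2-fold. A probe set's value also depends on its own probes. Genes were compared only with the middle of all values and with themselves on other arrays. The first of these comparisons does not remove the dependence on probes, so a place above or below the middle may partly reflect it. With 1 pooled array per group no difference within an experiment has a test or an error, and "higher" and "lower" are statements about these arrays. The 4 arrays had medians over the named probe sets of 6.05 for VAD, 6.08 for VAS, 6.03 for BMS and 6.04 for CTR, and upper quartiles between 7.66 and 7.69. Acta2 stood at 12.12 on VAD and 11.96 on VAS, and at 11.95 on BMS and 11.98 on CTR. Cspg4 stood at 8.22 on VAD and 7.71 on VAS, and at 7.98 on BMS and 8.08 on CTR, above the upper quartile on every array although its reporter was sorted out. A mean at or above the median of all named values was reached by all 10 smooth muscle markers and 11 of 12 fibroblast markers. All 10 markers of pericytes and vascular muscle and 10 of 12 endothelial markers reached it too. The label's markers are thus present, and so are those of other mesenchymal cells and of endothelium. Of 12 epithelial markers 7 lay below the median on every array, as did 5 of 10 measured leukocyte markers. However, 4 of the 12 epithelial and 4 of the 10 leukocyte markers had a mean at or above the median of all named values. Sftpc, of alveolar epithelium, reached 10.86 on VAS, and Sftpa1 reached 8.26 on VAS. The leukocyte marker Cd3e stood between 8.93 on BMS and 9.69 on VAD, and Cd68 between 7.85 on BMS and 8.63 on VAS. Both were above the upper quartile on every array.

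The Hox genes with a mean above the middle value were low-numbered genes of clusters A and B. A mean over the 4 arrays at or above 6.05, the median of all named values, was reached by 11588 of 23185 named probe sets. Among the 38 Hox genes, 11 (28.9%) reached it. They were Hoxa2, Hoxa3, Hoxa4, Hoxa5, Hoxa6 and Hoxa7, 6 of 10 in cluster A, and Hoxb2, Hoxb3, Hoxb4, Hoxb5 and Hoxb6, 5 of 10 in cluster B. None of the 9 Hoxc and none of the 9 Hoxd genes reached it. Every measured gene of groups 2 to 6 in clusters A and B was in the set, 10 of 10, and Hoxa7 was the other. Those bounds follow the genes that passed, so the 10 of 10 is no test of a pattern. Hoxb1, the lowest-numbered gene measured in these clusters, had a mean of 5.50, below the level. By paralog group, 11 of 22 genes of groups 1 to 8 reached the level and 0 of 16 of groups 9 to 13. Set beside the share of all named probe sets, clusters A and B and groups 1 to 8 were near it. Clusters C and D and groups 9 to 13 were below it.

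Of the 11 genes, 10 stood above the array's own median on all 4 arrays, and Hoxa6 on 3, falling short on BMS with 6.02. Hoxb5 was the member above the upper quartile on all 4 arrays, while Hoxa5 was above it on 3, Hoxb6 on 2 and Hoxb3 on CTR alone. Just inside the line were Hoxa6, with a mean of 6.38, and Hoxb2, with 6.41. Just outside were Hoxd10, with 5.98, and Hoxb7, with 5.96. Hoxd10, a gene of limb and lumbar patterning, stood at 6.28 on VAD and 6.07 on VAS, and at 5.81 on BMS and 5.78 on CTR. It passed the array median on VAD alone, and 26 genes stayed below their array's median on all 4 arrays. The shares of all named probe sets that lay above or below on all 4 arrays are not given here. These counts over 4 arrays are therefore not set against them.

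**Figure D1:**
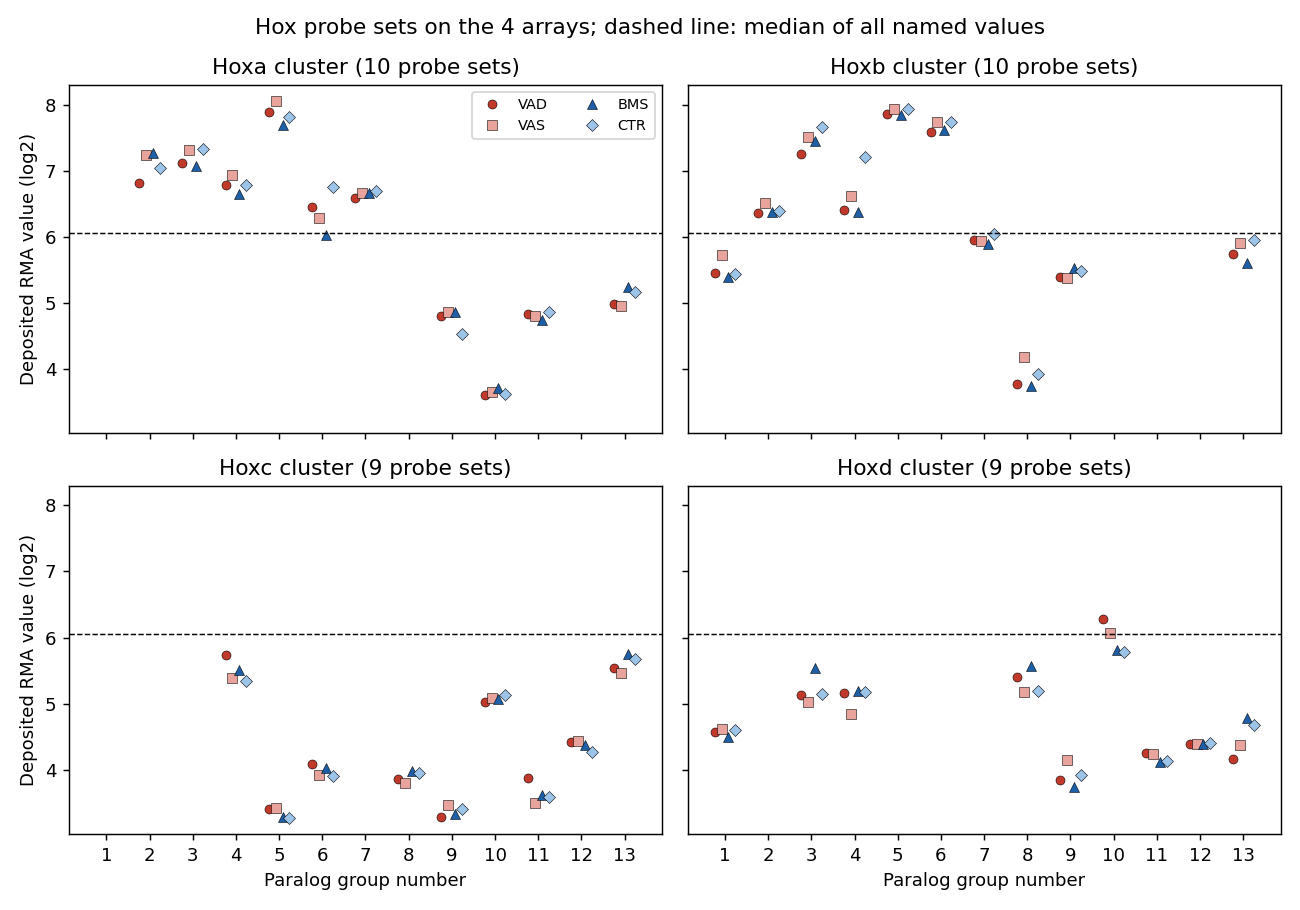
Deposited RMA value (log2) of every Hox probe set against its paralog group number, 1 panel per cluster, with 1 symbol per array (VAD, VAS, BMS, CTR) and a dashed line at 6.05, the median of all named values. Genes 2 to 7 of cluster A and 2 to 6 of cluster B have means above the line, and no Hoxc or Hoxd gene does.

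Hoxb4, which in mouse carries a retinoic acid response element and acts in blood stem cells as well as in axial patterning, was the Hox gene that spanned the widest range. It stood at 6.41 on VAD and 6.62 on VAS, a difference of -0.21. It stood at 6.37 on BMS and 7.20 on CTR, a difference of -0.83. The CTR array is the one that stands apart: VAD, VAS and BMS lie within 0.25 of each other, and CTR was 0.58 higher than VAS. Set against VAS in place of its own control, BMS differed by -0.25. The 4 values of Hoxb4 spanned 0.83, a range reached by 6.73% of all named probe sets with a mean at or above 6.05.

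Hoxa6, an axial patterning gene, was likewise highest on CTR. It stood at 6.45 on VAD and 6.28 on VAS, a difference of 0.17, and at 6.02 on BMS and 6.75 on CTR, a difference of -0.73. CTR was 0.47 above VAS, and BMS set against VAS differed by -0.26. Its range of 0.73 was reached by 9.26% of all named probe sets with a mean at or above 6.05. Hoxa2, a gene of the hindbrain and the second branchial arch, had the widest difference of these 11 in the diet experiment. It stood at 6.81 on VAD and 7.24 on VAS, a difference of -0.43, and at 7.27 on BMS and 7.03 on CTR, a difference of 0.23. VAD was the lowest of its 4 arrays and BMS the highest, so the experiments ran in opposite directions.

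The 250 bases upstream of these 3 genes are shown because they carry the largest differences of the set. They come from RefSeq on build GRCm38.p6, are written 5′ to 3′ on the gene's own strand and end at the base before its start. For Hoxb4 (chr11:96318017-96318266, plus strand, 58.0% GC) the capitals mark the reverse complement of AGGTCA, the half-site letters that nuclear receptors such as the retinoic acid receptors can bind. The match begins 81 bases before the start. For Hoxa6 (chr6:52208673-52208922, minus strand, 65.2% GC) nothing is in capitals, since AGGTCA occurs on neither strand. For Hoxa2 (chr6:52164832-52165081, minus strand, 46.4% GC) the capitals mark the reverse complement of TGATTGAT, the letters of a joint Hox and Pbx binding motif, which begin 111 bases before the start.
Hoxb4: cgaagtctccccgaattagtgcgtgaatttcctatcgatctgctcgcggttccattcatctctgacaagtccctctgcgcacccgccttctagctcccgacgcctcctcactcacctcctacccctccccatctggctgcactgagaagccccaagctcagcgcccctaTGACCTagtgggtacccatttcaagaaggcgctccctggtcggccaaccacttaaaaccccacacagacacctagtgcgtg
Hoxa6: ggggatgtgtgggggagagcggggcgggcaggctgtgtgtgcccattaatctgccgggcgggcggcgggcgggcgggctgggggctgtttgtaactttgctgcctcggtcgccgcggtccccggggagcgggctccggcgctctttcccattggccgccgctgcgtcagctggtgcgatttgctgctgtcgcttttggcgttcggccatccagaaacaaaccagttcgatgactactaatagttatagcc
Hoxa2: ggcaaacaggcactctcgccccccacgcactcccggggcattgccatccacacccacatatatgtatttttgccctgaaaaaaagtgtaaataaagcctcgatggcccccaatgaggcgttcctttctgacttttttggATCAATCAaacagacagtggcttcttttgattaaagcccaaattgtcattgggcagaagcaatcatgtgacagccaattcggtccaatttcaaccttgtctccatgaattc

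On either strand AGGTCA was in 14.0% of 32851 RefSeq windows of this length and in 6 of 24 windows (25.0%) of the 22 Hox genes that have one, those of Hoxb4, Hoxc4, Hoxd3, Hoxd4, Hoxd8 and Hoxd10. TGATTGAT was in 0.67% of all windows and in 2 of the 24 Hox windows, of Hoxa2 and Hoxd11. TGACAG, the letters of a Meis motif, was in 15.9% of all and in 2 Hox windows, of Hoxa2 and Hoxa3. Direct repeats of the retinoid half-site RGKTCA with a spacer of 5 or of 2 bases were in 0.0883% and 0.174% of all windows and in 0 of the 24 Hox windows. These are matches of letters in short windows, and 5 of the 11 genes above the level have no window in the table.

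Hoxa3 and Hoxb3 had lower values on both the VAD and the BMS array. Hoxa3, required for thymus, parathyroid and carotid body in mouse, stood at 7.12 on VAD and 7.31 on VAS, and at 7.07 on BMS and 7.33 on CTR. Its differences were -0.19 and -0.26, and both VAD and BMS lay below both controls. Hoxb3, which acts in the hindbrain, stood at 7.26 on VAD and 7.50 on VAS, and at 7.45 on BMS and 7.67 on CTR, with differences of -0.25 and -0.21. Its BMS value lay only 0.05 below VAS.

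Of the lung development genes of group 5, Hoxb5 was nearly level over the arrays and Hoxa5 less so. Hoxa5 stood at 7.89 on VAD and 8.06 on VAS, and at 7.69 on BMS and 7.81 on CTR, with differences of -0.17 and -0.12. The 2 controls of Hoxa5 differed by -0.25, more than either experiment, and VAD lay above CTR. Hoxb5 stood at 7.85 on VAD and 7.94 on VAS, and at 7.84 on BMS and 7.93 on CTR, with differences of -0.08 and -0.09. Its 4 values spanned 0.09, and 96.7% of all named probe sets with a mean at or above 6.05 spanned at least as much.

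Hoxb6, a neighbour of Hoxb5 with a role in axial patterning, stood at 7.59 on VAD and 7.74 on VAS, and at 7.61 on BMS and 7.74 on CTR. Its controls were within 0.01 of each other and its differences were -0.15 and -0.13. Hoxa4, which also carries a retinoic acid response element in mouse, stood at 6.79 on VAD and 6.94 on VAS, and at 6.65 on BMS and 6.78 on CTR. Here VAS alone was the highest array, and VAD and CTR were level, 0.01 apart. Hoxb2, a hindbrain gene, stood at 6.37 on VAD and 6.51 on VAS, and at 6.38 on BMS and 6.40 on CTR, a BMS difference of -0.02. Hoxa7, an axial patterning gene, stood at 6.59 on VAD and 6.67 on VAS, and at 6.67 on BMS and 6.70 on CTR. Those 4 values of Hoxa7 spanned 0.10.

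**Figure D2:**
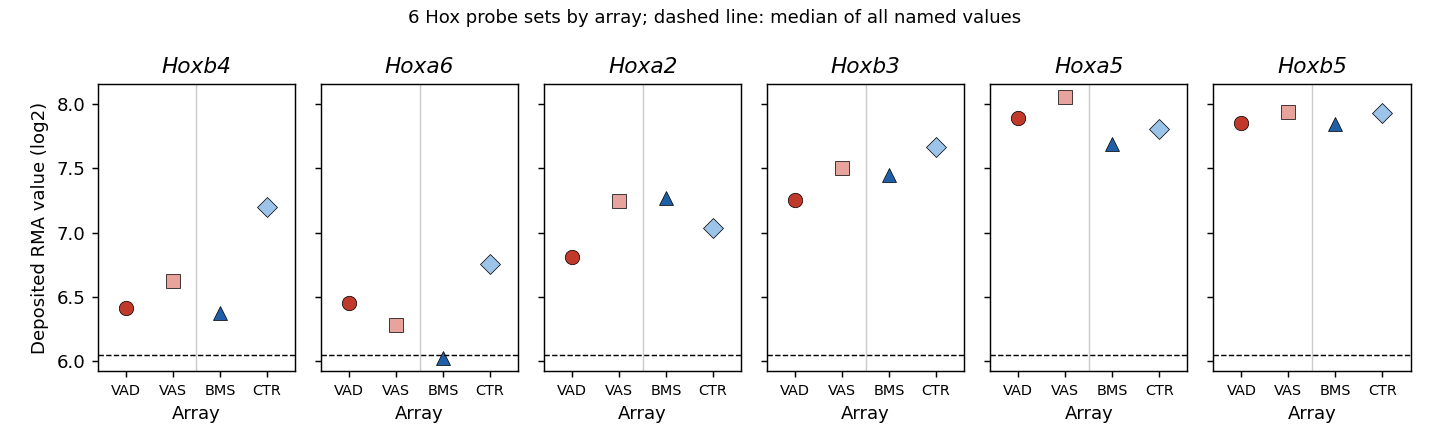
Deposited RMA value (log2) of Hoxb4, Hoxa6, Hoxa2, Hoxb3, Hoxa5 and Hoxb5 on the VAD, VAS, BMS and CTR arrays, 1 point per array, with a dashed line at 6.05, the median of all named values. Hoxb4 has 1 high array, CTR at 7.20, and Hoxb5 is nearly level at 7.84 to 7.94.

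The other 27 genes had means between 3.35 and 5.98, and whether they lay above background is unknown. Their lowest value was 3.27, of Hoxc5, and their highest 6.28, of Hoxd10. The range over the 4 arrays ran from 0.01 for Hoxd12 to 0.62 for Hoxd13, both genes of the limb end of cluster D. Hoxd13 stood at 4.16 on VAD and 4.37 on VAS, and at 4.78 on BMS and 4.69 on CTR, so the diet arrays were lower than the antagonist arrays. Among the genes with response elements, Hoxb1 stood at 5.45 on VAD and 5.72 on VAS, and at 5.40 on BMS and 5.44 on CTR, where VAS was the high array. Hoxd4 stood at 5.16 on VAD and 4.84 on VAS, and at 5.20 on BMS and 5.18 on CTR, where VAS was the low array.

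In VAD against VAS, none of the 38 genes was 1.5-fold lower, where 2.14% of all named probe sets were, and none was 1.5-fold higher, where 1.29% were. Past 0.32 on the log2 scale, a smaller fold, Hoxa2 and Hoxb8 were lower (8.77% of all named), and Hoxc4 and Hoxc11 higher (7.1% of all named). Hoxb8, which acts in axial patterning and myeloid cells, stood at 3.78 on VAD and 4.19 on VAS. Hoxc4 stood at 5.73 on VAD and 5.40 on VAS, and Hoxc11 at 3.88 on VAD and 3.51 on VAS. The median difference over the 38 was -0.05, against -0.0077 over all named probe sets. Over the 11 genes above the level it was -0.15, against 0.01 over all named probe sets above it. Of these 11, 10 were below 0, all but Hoxa6, where 47.9% of all named probe sets above the level were.

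In BMS against CTR, 2 of 38 genes were 1.5-fold lower, Hoxb4 and Hoxa6, where 1.74% of all named probe sets were, and none was 1.5-fold higher, where 2.18% were. The count of 2 goes to 0 when VAS or the mean of both controls takes the place of CTR. Past 0.32, Hoxb13 joined the lower genes (8.33% of all named), with 5.60 on BMS and 5.96 on CTR. On the higher side stood Hoxa9, Hoxd3 and Hoxd8 (8.25% of all named). Hoxa9, known from blood progenitors, stood at 4.87 on BMS and 4.54 on CTR, Hoxd3 at 5.54 on BMS and 5.15 on CTR, and Hoxd8 at 5.57 on BMS and 5.19 on CTR. The median over the 38 was -0.02, against -0.0039 over all named probe sets, and over the 11 it was -0.13, against 0.01 over all named probe sets above the level. Of the 11, 10 were below 0, all but Hoxa2, where 48.1% of all named probe sets above the level were.

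Between the controls, CTR against VAS, no Hox gene was 1.5-fold lower (4.33% of all named) or higher (2.16% of all named). Past 0.32, Hoxa9 was lower (13.3% of all named), and Hoxb4, Hoxa6 and Hoxd4 were higher (11.4% of all named). The median was 0.0039 over the 38 and -0.0012 over the 11, of which 6 were below 0, where 49.1% of all named probe sets above the level were. The standard deviation of the 38 differences was 0.19 in VAD against VAS, 0.24 in BMS against CTR and 0.20 in CTR against VAS, while over all named probe sets it was 0.26, 0.28 and 0.34 in the same order. By standard deviation the Hox differences were less spread than those of all named probe sets, most clearly between the controls. The median range over the 4 arrays was closer, 0.28 for the 38 Hox genes and 0.31 for all named probe sets.

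**Figure D3:**
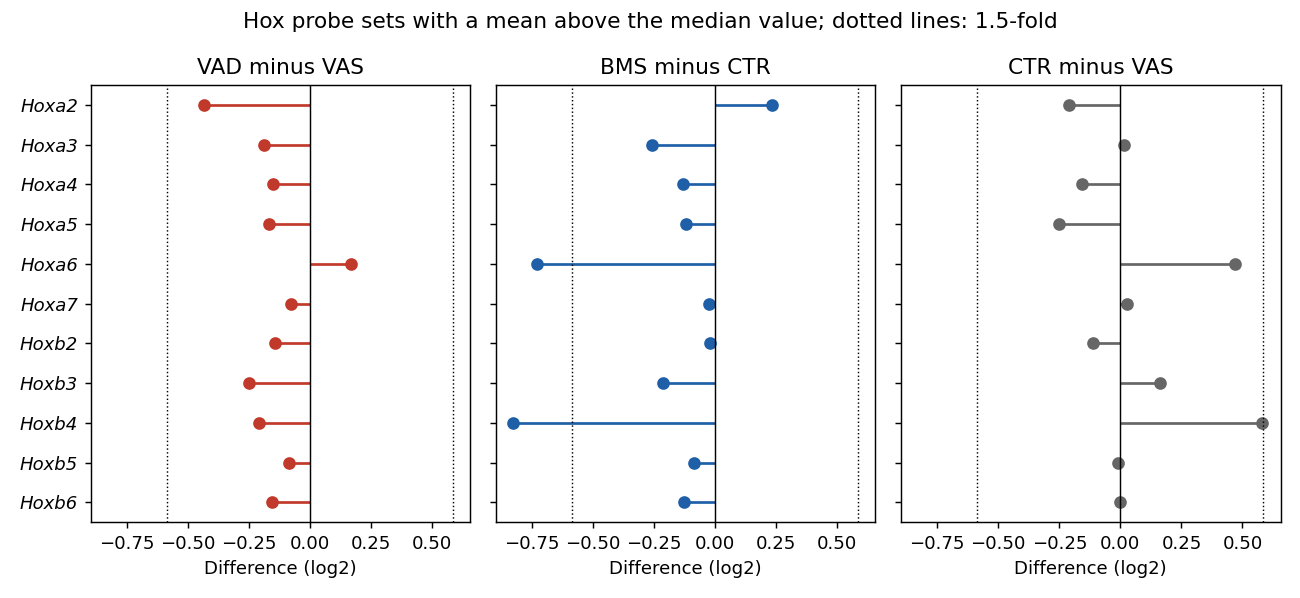
Differences (log2) of the 11 Hox probe sets with a mean at or above the median of all named values, in VAD minus VAS, BMS minus CTR and CTR minus VAS, with dotted lines at 1.5-fold. In each of the first 2 panels 10 of 11 genes lie left of 0, most by less than 0.30, and Hoxb4 and Hoxa6 in BMS minus CTR are the points beyond a dotted line.

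Of the 11 genes, 9 were below 0 in both experiments, where 22.4% of all named probe sets above the level were. In 7 of the 11 (63.6%) the VAD and the BMS value both lay below both controls, where 11.2% of named probe sets above the level did. These were Hoxa3, Hoxa7, Hoxb2, Hoxb3, Hoxb4, Hoxb5 and Hoxb6. The distance between the lower control and the higher of VAD and BMS was 0.21 for Hoxb4, 0.19 for Hoxa3, 0.13 for Hoxb6 and 0.08 for Hoxb5. It was 0.05 for Hoxb3, 0.02 for Hoxb2 and 0.0013 for Hoxa7, so for these 3 the order of the arrays rests on very small distances. None of the 11 had both VAD and BMS above both controls, where 15.0% of named probe sets above the level did.

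Over all 38 genes the same order, VAD and BMS below both controls, was seen for 13 (34.2%), where it was seen for 15.2% of all named probe sets. Cluster B held 7 of these among its 10 genes, and clusters A, C and D held 2 each. The reverse order was seen for 4 of 38, Hoxc4, Hoxc6, Hoxc11 and Hoxd8, where 13.6% of all named probe sets had it. By cluster, the median difference in VAD minus VAS was -0.07 for A, -0.16 for B, 0.07 for C and 0.01 for D. In BMS minus CTR it was -0.07 for A, -0.14 for B, 0.03 for C and 0.02 for D. Neighbouring Hox genes may share transcripts, since 10 of the 38 overlap another Hox gene's span in RefSeq. Hoxa4, Hoxa5 and Hoxa6 lie within the span of Hoxa3, and Hoxb4 within that of Hoxb3. The sources used here do not say which transcripts each probe set reads.

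**Figure D4:**
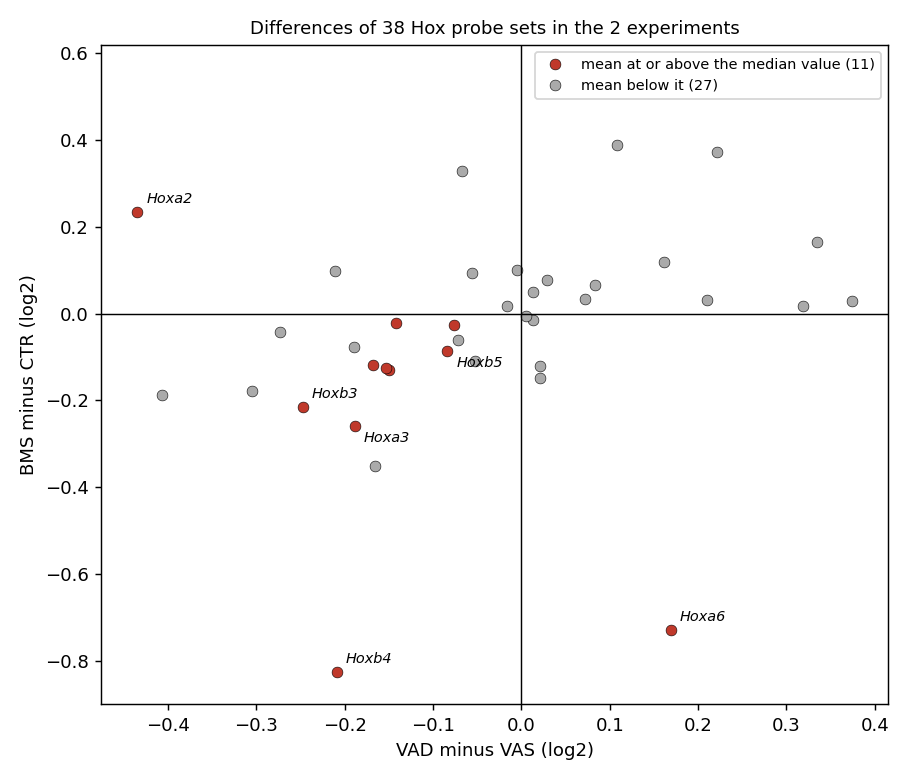
BMS minus CTR against VAD minus VAS (log2), 1 point per Hox probe set, with the 11 genes above the median value and the 27 below it in separate colours. Of the 11, 9 lie in the lower left part, and Hoxa2 and Hoxa6 each lie outside it on a different side.

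A joint limma fit of VAD and BMS against VAS and CTR, with the experiment as a block and 1 residual degree of freedom, called 0 of 38 Hox genes and 0 of 23185 named probe sets (0.0%) at an adjusted p of 0.05. The smallest adjusted p of a Hox gene in limma was 0.98. Without adjustment, 1 Hox gene, Hoxb4, was below 0.05, with a difference of -0.52 and a standard error of 0.19, where 4.05% of all named probe sets were. No joint difference of a Hox gene therefore passed the test.

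Of the proteins that bind DNA together with Hox factors, the Meis, Pbx and Pknox family, 8 of 9 genes were measured and 7 had a mean above the level. Meis2 was the 1 of them past 1.5-fold in VAD minus VAS, BMS minus CTR or CTR minus VAS. It stood at 8.82 on VAD and 9.16 on VAS, a difference of -0.34, and at 9.44 on BMS and 8.63 on CTR, a difference of 0.81. Its CTR array was the lowest, 0.53 below VAS. Meis1 stood at 9.60 on VAD and 9.49 on VAS, and at 9.67 on BMS and 9.76 on CTR. Medians over the 8 cofactors were -0.04 in VAD minus VAS, -0.09 in BMS minus CTR and 0.07 in CTR minus VAS.

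Of 31 noncoding genes inside the clusters and genes beside them, 21 were measured and 6 had a mean above the level. The noncoding RNA Hoxaas3, whose span overlaps Hoxa3, Hoxa5 and Hoxa6, stood at 6.40 on VAD and 6.51 on VAS, and at 6.37 on BMS and 6.59 on CTR, so VAD and BMS lay below both controls. Hotair, the noncoding RNA of cluster C, stood below the array medians, at 5.40 on VAD and 5.41 on VAS, and at 5.35 on BMS and 5.55 on CTR. Evx1os, beside cluster A, was the 1 gene of the list past 1.5-fold in VAD minus VAS, BMS minus CTR or CTR minus VAS, with -0.59 in the last, at 3.35 on CTR and 3.95 on VAS. Of the genes that set where Hox clusters open along the embryo, Cdx1, Cdx2, Cdx4 and Nr6a1 had means below the level and Gdf11 above it, and none of these 5 was past 1.5-fold.

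Polycomb proteins keep Hox clusters silent and trithorax proteins keep them active. Of 26 Polycomb genes 25 were measured and 23 had means above the level. Their medians were 0.03 in VAD minus VAS, -0.08 in BMS minus CTR and 0.05 in CTR minus VAS, with Phf1 past 1.5-fold at 0.85 in CTR minus VAS. All 18 trithorax and demethylase genes had means above the level, with medians of 0.10, -0.18 and 0.17 in the same order. Kmt2a, which maintains Hox expression, and its relative Kmt2d were past 1.5-fold, at 0.62 and 0.70 in CTR minus VAS.

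Among 14 measured genes of retinoic acid signalling, Dhrs3, an enzyme that returns retinaldehyde to retinol, stood at 10.34 on VAD and 9.30 on VAS, and at 10.20 on BMS and 9.63 on CTR. The differences of Dhrs3 were 1.04 and 0.56, higher in VAD and BMS, and the first is past 1.5-fold. The medians over the 14 were 0.12 in VAD minus VAS, 0.08 in BMS minus CTR and 0.03 in CTR minus VAS. Rarb, a receptor gene that retinoic acid induces, stood at 6.39 on VAD and 6.43 on VAS, and at 6.58 on BMS and 6.42 on CTR. Cyp26b1, which degrades retinoic acid, stood at 6.22 on VAD and 6.09 on VAS, and at 6.18 on BMS and 6.07 on CTR. Crabp1, a retinoic acid binding protein with a mean of 4.95, below the level, was past 1.5-fold with -0.72 in VAD minus VAS and -0.59 in CTR minus VAS. Of the 4 measured Hox genes known in mouse to have response elements, Hoxb1, Hoxa4, Hoxb4 and Hoxd4, 3 were below 0 in VAD minus VAS, where 51.4% of all named probe sets were, and 3 in BMS minus CTR, where 50.8% were. A count of 3 among 4 genes is too small to set apart from these shares.

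Markers of other cells also differed between the arrays. In BMS against CTR, all 12 fibroblast markers were above 0, with a median of 0.50 and 5 past 1.5-fold, and their summed linear level was 27066.3 on BMS and 20325.5 on CTR. The 5 were Pdgfra, Cd34, Clec3b, Scara5 and Pi16, and 4 of them were also 1.5-fold lower in CTR minus VAS, at -1.37 for Cd34, -1.49 for Clec3b, -1.01 for Scara5 and -2.14 for Pi16. In BMS minus VAS these 4 differed by 0.34, 0.02, 0.43 and -0.92 in the same order. CTR, the high array of Hoxb4 and Hoxa6, is thus the low array of these 4 genes, but not of the fibroblast list as a whole. Of the 12 fibroblast markers, 7 were below 0 and 5 above 0 in CTR minus VAS, with a median of -0.08. Col3a1 was 1.5-fold higher on CTR than on VAS, at 0.64. In BMS minus CTR, all 10 smooth muscle markers were below 0, with a median of -0.17, and summed to 21264.8 on BMS and 23339.5 on CTR. The 10 markers of pericytes and vascular muscle had a median of -0.27, with 9 below 0. In VAD against VAS, all 10 smooth muscle markers were above 0, with a median of 0.19 and sums of 27766.5 on VAD and 23813 on VAS. The 10 markers of pericytes and vascular muscle also had a median of 0.19 there, with 7 above 0 and 3 below. The fibroblast median in VAD against VAS was -0.06, with sums of 21542.9 on VAD and 22524.9 on VAS. In CTR against VAS, all 10 markers of pericytes and vascular muscle were above 0, with a median of 0.35. All 6 mesothelial markers were below 0, with a median of -0.37. The smooth muscle median between the controls was 0.0035, with 5 above 0 and 5 below.

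The remaining marker medians, in the order VAD minus VAS, BMS minus CTR and CTR minus VAS, were 0.04, 0.25 and -0.05 for endothelium, -0.20, 0.02 and -0.21 for epithelium, -0.06, 0.02 and -0.40 for leukocytes and -0.08, -0.04 and -0.25 for cardiac muscle. For mesothelium the first 2 were 0.17 and 0.04. Single markers differed far more than these medians. Sftpc, the surfactant protein C gene of alveolar type II cells, stood at 9.28 on VAD and 10.86 on VAS, and at 9.15 on BMS and 7.32 on CTR, differences of -1.58 and 1.82, and CTR minus VAS was -3.54. Sftpa1, another surfactant gene, differed by -1.08 in VAD minus VAS and -1.56 in CTR minus VAS. The leukocyte gene S100a8 stood at 6.08 on CTR and 8.08 on VAS, and Ptprc at 5.97 on CTR and 7.47 on VAS, both lower on CTR. Of the 10 measured leukocyte markers, 9 were below 0 in CTR minus VAS. Cd3e was the 1 above 0, at 0.36, and it differed by 0.71 in VAD minus VAS. The smooth muscle median was 0.19 in VAD minus VAS and -0.17 in BMS minus CTR, and that of the 11 Hox genes was -0.15 and -0.13. The part of any of these marker shifts in the Hox differences was not tested. In such bulk RNA, fewer cells of a type and less RNA per cell cannot be told apart.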

How the data were processed

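RNA of sorted lung cells was measured on 4 arrays, 1 per group, each from 3 pooled mice, and groups were taken from the sample titles. The authors deposited log2 values made by RMA (background correction, normalization across arrays, probe summary). The submitters' processing notes name affy 1.36.1 and R 2.15.1. After RMA the arrays have much the same distribution, which hides any change common to most genes. Scanner intensities were not used here, so detection per probe set is unknown. Precision is limited by the number of arrays.

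Probe sets were named through GEO's platform annotation, and all 38 Hox genes matched RefSeq (GRCm38.p6) by Entrez number. The 2021 probe sets unnamed here were left out. For each comparison 1 log2 value was subtracted from the other in all 38 genes, with no filter, and set beside all 23185 named probe sets. The 1.5-fold threshold is 0.58 on the log2 scale. The test was limma (lmFit and eBayes) with Benjamini-Hochberg adjustment over all named probe sets. It was also run on simulated data whose noise followed limma's own fitted model, which cannot show how it fares on these arrays. Named Hox genes are those with a mean at or above the median, those past 1.5-fold, those with response elements and the extremes of the rest. Genes named past a log2 difference of 0.32, and list members below 1.5-fold, were chosen after their values were seen. Alternatives were other folds, the other control, the mean of both controls, renormalization by quantiles or cyclic loess, a filter on the mean, other limma settings and leaving out each array. The members and lists were chosen with earlier results of these data known. The software was R 4.3.3 with limma 3.58.1, and Python 3.11.15 with matplotlib 3.10.9, numpy 2.4.6 and pandas 2.3.3.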

Additional observations from a re-analysis of the deposited data

Results flagged for a closer look

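Differences of opposite sign in the diet and the antagonist experiment were seen for 11 of 38 Hox genes, most of them with means below the median of all named values. Of the 38, 16 were below 0 in both and 11 above 0 in both, against 26.0% and 23.6% of all named probe sets. Opposite signs were thus less common among the Hox genes than among all named probe sets. Of the 11 Hox genes with a mean at or above the median of all named values, Hoxa2 and Hoxa6 were the 2 with opposite signs. Above that level, 22.4% of all named probe sets were below 0 in both experiments and 26.4% above 0 in both. Meis2 is listed as the cofactor gene with opposite signs that was past a log2 difference of 0.32 in both experiments. Hoxa2 differed by -0.43 in VAD minus VAS and by 0.23 in BMS minus CTR. Hoxa6 differed by 0.17 in VAD minus VAS and by -0.73 in BMS minus CTR. Meis2, a Hox cofactor, differed by -0.34 in VAD minus VAS and by 0.81 in BMS minus CTR. The difference between the experiments was not tested, since each group is 1 array.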

How the results depend on the processing

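Counts of Hox genes past a fold depended on the control and on the fold. The lower fold tried is 0.32 on the log2 scale. In VAD against VAS, the count of 0 lower genes became 1 (Hoxb4) with CTR as the control and 2 past 0.32, and the count of 0 higher genes became 2 past 0.32. In BMS against CTR, the count of 2 lower genes became 0 with VAS as the control, 0 with the mean of VAS and CTR (the mean control), 0 at 2-fold and 3 past 0.32, and the 0 higher genes became 3 past 0.32. In CTR against VAS, the 0 lower genes became 1 past 0.32, and the 0 higher genes became 3 past 0.32 and 1 (Hoxb4, at 0.61) after quantile normalization. The median over the 38 genes in VAD minus VAS, -0.05, became -0.15 with the filter on the mean, -0.010 after quantile normalization and -0.024 after cyclic loess. In BMS minus CTR the median of -0.02 became -0.13 with the filter, -0.011 after quantile normalization, -0.0053 after cyclic loess, -0.054 against VAS and -0.064 against the mean control. In CTR minus VAS the median of 0.0039 became -0.0012 with the filter, 0.019 after quantile normalization and -0.0093 after cyclic loess. The causes were not tested, apart from the filter, which leaves 11 genes.

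Of 143 values of the 11 single genes under alternatives, 33 are the same by construction, and 6 moved by more than the standard deviation of that comparison over all named probe sets (0.26 for VAD minus VAS, 0.28 for BMS minus CTR, 0.34 for CTR minus VAS). With another control, 4 of 44 changed sign, all for VAD: Hoxa4 to 0.01, Hoxa5 to 0.08 and Hoxa6 to -0.30 against CTR, and Hoxa6 to -0.07 against the mean control. Hoxa2 in BMS became 0.02 against VAS. The 6 that moved were Hoxb4 and Hoxa6 with another control. For Hoxb4 they were -0.79 for VAD against CTR, -0.50 for VAD against the mean control, -0.25 for BMS against VAS and -0.54 for BMS against the mean control. For Hoxa6 they were -0.30 for VAD against CTR and -0.26 for BMS against VAS. Renormalization shifted no difference of the 11 by more than 0.05 and turned the sign of 2 of 66, both between controls: Hoxa3 to -0.01 after cyclic loess and Hoxb6 to 0.0082 after quantile normalization. The 7 of 11 genes with VAD and BMS below both controls stayed 7 under both renormalizations, and the 13 of 38 became 12 under each, alternatives chosen after seeing the data. The limma fit called 0 Hox genes under every setting run (no block, trend and robust, filter, cyclic loess, leaving out each array without the block), with 0 or 1 below an unadjusted 0.05. Those fits have 1 or 2 residual degrees of freedom and called 0 probe sets in all, so they say nothing about stability. Where an array is left out, the lone array of its side is assumed to vary like the others. The experiment block of that fit pairs VAD with VAS and BMS with CTR. Beyond it, no paired analysis was possible because each group is 1 array and the labels give no replicate numbers.

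No spread between mice is known, and VAS and CTR also differ in diet form, vehicle and pool. Genes near the low end of the scale have no stated detection call.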
